A study of Mus musculus with 27 samples.

Results

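The nuclear-encoded subunits of the respiratory chain and ATP synthase were followed across haematopoietic stem and progenitor cells (HSPCs) from embryo to adult mouse. Members were taken by gene symbol, namely all Nduf subunits of the a, b, c, s and v series, the Uqcr genes, the Cox4 to Cox8 genes, the Atp5 genes, Sdha to Sdhd, Cycs and Cyc1, without pseudogene symbols. The rule found 86 of the 24418 entries of the expression table, and 83 of them were among the 13350 entries tested, those that reached an FPKM of 1 in 3 or more libraries. By structure they comprised 35 subunits of complex I, 4 of complex II, 9 of complex III, 18 of complex IV (with Ndufa4, which is now placed there) and 15 of complex V. Cytochrome c (Cycs) and 4 genes whose symbols match but which are not structural subunits by common annotation (Cox7a2l, Ndufa4l2, Atp5s and Atp5sl) made up the rest.

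Bulk RNA sequencing had been done on purified HSPCs of C57BL/6 mice, with 3 libraries in each of 9 groups. The earliest groups are labelled E12.5 PL and E12.5 FL, followed by E16.5 FL, by Perinatal BM and by 5 marrow groups aged 1, 3, 4, 6 and 8 weeks (1w BM to 8w BM). FL and BM commonly stand for fetal liver and bone marrow, whereas PL is not spelled out, and the sources used here name no purification markers, no sex and no perinatal day. No genotype other than the strain and no treatment separates the groups, and nothing says whether the 3 libraries of a group came from separate animals, so p-values rest on the spread among libraries alone, which may be technical.

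Complex I (NADH dehydrogenase) and complex II (succinate dehydrogenase) pass electrons to coenzyme Q, complex III passes them on to cytochrome c, and complex IV (cytochrome c oxidase) hands them to oxygen. Complexes I, III and IV pump protons, and complex V (ATP synthase) uses the proton gradient to make ATP. Adult haematopoietic stem cells in the niche are known for a low reliance on this pathway, while dividing progenitors use it more. The subunits encoded by the mitochondrial genome were not analysed here.

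The HSPC label was checked against 16 markers of these cells. All 16 reached an FPKM of 1 in every FL and BM library, with a summed level of 1314 to 1897 FPKM, against 14 or 15 of 16 and 324 to 454 FPKM in E12.5 PL. E12.5 PL also held 3751 to 4379 FPKM of 13 trophoblast markers and 3066 to 7087 FPKM of 9 stromal markers, against at most 110 and 52.7 FPKM in any other library. At least 11 of the trophoblast markers and all 9 stromal markers reached an FPKM of 1 there, against 3 of each list in E12.5 FL. In bulk samples fewer cells of a type and less RNA per cell cannot be told apart. FPKM summed over all entries came to 519810 to 763033 per library, and the sequencing depth is unknown because counts were not part of the files used.

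Across all 27 libraries the members with the highest mean level were Atp5b (628 FPKM), the catalytic beta subunit of ATP synthase, Atp5g2 (622 FPKM), 1 of 3 genes for its membrane rotor ring, and Cox4i1 (519 FPKM), the ubiquitous isoform of a regulatory subunit of complex IV. FPKM is scaled per length, so these levels can be set beside each other. In 8w BM the median member stood at 228 FPKM in complex V, 138 in complex III, 149 in complex IV, 98.9 in complex II and 79.0 in complex I. In E12.5 FL the same medians were 324, 204, 200.2, 117 and 111 FPKM. By these medians complex V was the highest and complex I the lowest in both groups. The complex IV median counts its tissue-restricted isoforms, which lower it. No median level of its ubiquitous subunits alone was taken, so this order does not rank them against complex V. The 3 untested members were tissue-restricted complex IV isoforms. Cox8b was listed at 0 in all libraries except E12.5 PL replicate 1 (0.448 FPKM), Cox7b2 at 0 in all except 6w BM replicate 3 (0.339 FPKM), and Cox8c at 0 in all 27. The lowest tested members were Cox6a2 (4.00 FPKM), Cox7a1 (2.33 FPKM) and Ndufa4l2 (0.908 FPKM), and Ndufa4l2 passed the filter through 6 libraries, the 3 of E12.5 PL and the 3 of E16.5 FL. Since the groups where it is high admitted it, its values are given below as a description with no test, although the counts of called members include it.

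Promoters of 3 members whose levels are given below are shown because they carry short motifs described for respiratory genes. Sequences are from RefSeq on GRCm38.p6, run 250 bases before to 50 bases after the annotated start, and are written 5′ to 3′ on the strand of the gene. They lie at chr6:50566520-50566819 (minus strand) for Cycs, chr15:102670998-102671297 (minus strand) for Atp5g2 and chr2:73911277-73911576 (minus strand) for Atp5g3. Capitals mark the motif letters found by exact search on both strands, which are TGACGTCA (the CRE, first) and CGCATGCG (the NRF1 motif, second) in Cycs, CGCATGCG in Atp5g2, and TGACCTTGA in Atp5g3, the reverse complement of the ERR motif TCAAGGTCA.
Cycs: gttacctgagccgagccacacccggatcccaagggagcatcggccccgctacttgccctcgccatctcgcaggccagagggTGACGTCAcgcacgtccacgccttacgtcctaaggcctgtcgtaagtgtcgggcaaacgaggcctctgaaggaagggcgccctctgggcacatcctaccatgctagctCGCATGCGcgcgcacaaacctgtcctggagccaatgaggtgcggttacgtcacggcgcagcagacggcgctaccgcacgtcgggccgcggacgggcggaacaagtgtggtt
Atp5g2: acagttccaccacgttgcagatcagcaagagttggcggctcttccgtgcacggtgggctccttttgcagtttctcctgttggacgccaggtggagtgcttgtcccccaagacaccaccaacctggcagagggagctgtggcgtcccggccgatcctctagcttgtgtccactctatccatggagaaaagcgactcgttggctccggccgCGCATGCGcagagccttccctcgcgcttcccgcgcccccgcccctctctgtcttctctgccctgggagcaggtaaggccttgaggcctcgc
Atp5g3: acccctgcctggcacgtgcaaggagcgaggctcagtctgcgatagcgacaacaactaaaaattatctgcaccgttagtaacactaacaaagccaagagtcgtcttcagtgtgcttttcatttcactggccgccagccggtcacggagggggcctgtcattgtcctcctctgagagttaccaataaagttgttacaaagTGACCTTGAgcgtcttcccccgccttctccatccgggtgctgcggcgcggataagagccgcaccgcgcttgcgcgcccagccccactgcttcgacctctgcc
RefSeq promoters were matched for 70 members (76 promoters). The NRF1 motif was found in 13.16% of these promoters and in 2.516% of 21262 promoters of protein-coding genes, which include the members. It was held by 10 members, Atp5g2, Atp5j, Atp5k, Atp5l, Cox6a1, Cycs, Ndufa11, Ndufa8, Uqcr11 and Uqcrc1. The YY1 motif was found in 9.211% of member promoters against 1.213% of all, the CRE in 6.579% against 2.234%, and the ERR motif in 2.632% (Atp5g3 and Sdhd) against 0.3339%. The ETS motif CCGGAAGT (6.579% against 5.145%) and TATAAA (10.53% against 12.6%) had shares closer to each other. No motif contains another, and a match describes these letters only.

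Over the FL and BM groups the members stood highest in E12.5 FL. As a library measure, the log2(FPKM + 1) of each tested member was set against its mean in E12.5 FL and the median over members was taken. This median was 0.39 ± 0.24 in E12.5 PL, 0.00 ± 0.10 in E12.5 FL, -0.35 ± 0.09 in E16.5 FL, -0.23 ± 0.18 in Perinatal BM and -0.21 ± 0.06 in 1w BM (SD, n = 3 each). In older marrow it was -0.35 ± 0.08 at 3 weeks, -0.43 ± 0.10 at 4 weeks, -0.54 ± 0.23 at 6 weeks and -0.40 ± 0.07 at 8 weeks. All 86 members together took 3.27% ± 0.313 of the FPKM of an E12.5 PL library, 2.90% ± 0.0709 in E12.5 FL, 2.33% ± 0.0528 in E16.5 FL and 2.31% ± 0.0791 in 8w BM. All 3 E12.5 FL libraries lay above every E16.5 FL library in both measures. Perinatal BM replicate 2 (-0.43) and replicate 3 (-0.07), and 6w BM replicate 2 (-0.79) and replicate 1 (-0.34), lay as far apart as many groups did.

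**Figure D1:**
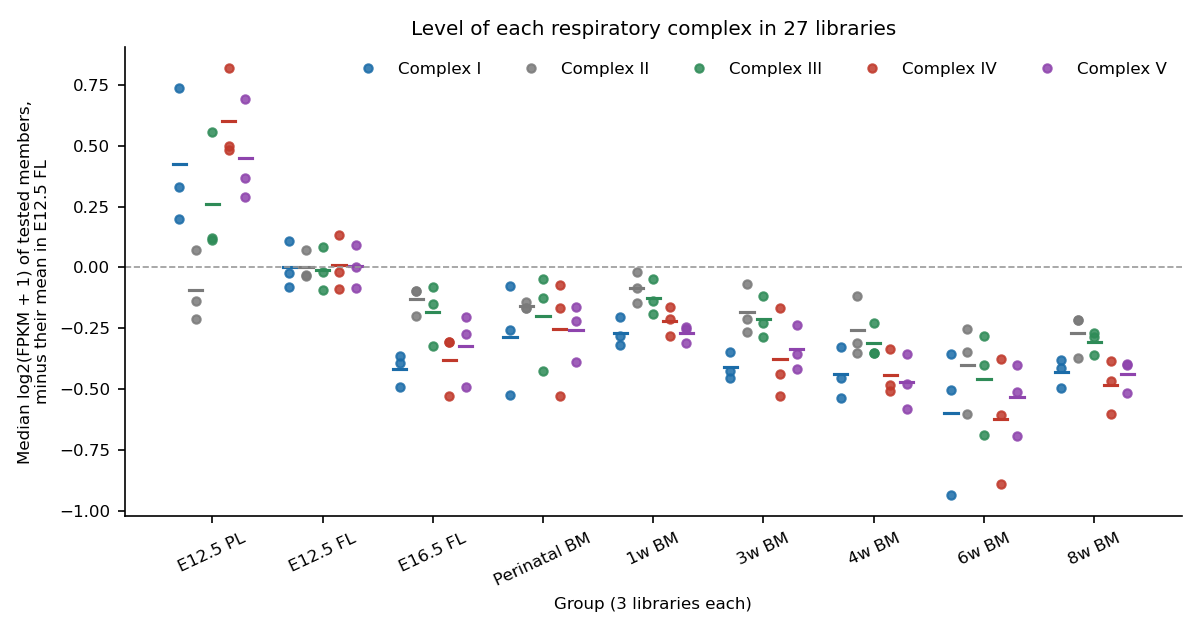
Median level of the tested members of each complex in every library, on the log2(FPKM + 1) scale relative to the mean of E12.5 FL; points are libraries and bars are group means (n = 3). Complexes I, III, IV and V lie highest in E12.5 PL and below 0 in every library from E16.5 FL onward, and complex II moves least between E12.5 PL and E16.5 FL.

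Of the 83 tested members, 66 varied among the 8 FL and BM groups (limma moderated F, adjusted p under 0.05), where 74.8% of all genes tested did. They were 27 of 35 in complex I, 4 of 4 in complex II, 7 of 9 in complex III, 11 of 15 in complex IV, 13 of 15 in complex V, Cycs, and 3 of the 4 associated genes. These counts include Ndufa4l2. Apart from it, the smallest adjusted p belonged to Cox4i2 (1.81e-07), Atp5b (1.82e-06), Atp5a1 (1.91e-06) and Cox7a2l (4.06e-06), followed by Atp5g3, Ndufs1, Ndufv3, Ndufv1 and Cox7b. Without 1 library at a time, 53 to 71 members varied.

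Between the fetal liver stages many members fell. In E16.5 FL, 43 of 83 members were lower, where 15.6% of all genes tested were, and 3 were higher, where 19.0% of all genes were (limma, adjusted p under 0.05). The members' median log2 change was -0.37, against 0.01 over all genes, and 74 of 83 had a negative change. Changes are differences of log2(FPKM + 1), so those of low genes are understated. The count of lower members rested in part on 2 libraries. Without E12.5 FL replicate 2 it was 21 (11.4% of all genes were then lower), and without E16.5 FL replicate 3 it was 23 (12.2% of all genes), while leaving out any other of the 6 libraries gave 33 to 39. The members' median log2 change stayed at -0.31 without either of these libraries.

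By complex, 24 of 35 members of complex I were lower (median log2 change -0.42), 1 of 4 of complex II (-0.13), 2 of 9 of complex III (-0.20), 6 of 15 of complex IV (-0.37) and 9 of 15 of complex V (-0.31). Without E12.5 FL replicate 2 the counts were 10, 0, 0, 5 and 5, and without E16.5 FL replicate 3 they were 13, 0, 0, 5 and 4. Complex III also had 0 without E16.5 FL replicate 2, and complex II had 0 without E12.5 FL replicate 3 or E16.5 FL replicate 1. Whether the complexes differ from each other in their change was not tested.

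Transcript length was looked at because many members are short. Of the tested members with a length, 47 of 82 have a longest coding transcript under 1000 bases. In E16.5 FL replicate 3 the members' library median was -0.45, and that of 668 other genes under 1000 bases was -0.12, while in E12.5 FL replicate 2 the values were 0.11 and 0.08. In other libraries the measures parted, with -0.30 and 0.00 in E16.5 FL replicate 1 and -0.07 and 0.11 in Perinatal BM replicate 3. Of those other short genes, 18.6% were lower in E16.5 FL and 12.4% higher, with a median log2 change of -0.03. Members of 1000 bases and over were lower in 19 of 35 cases (median -0.28) and shorter members in 24 of 47 (median -0.40). Without E12.5 FL replicate 2 these counts were 11 and 10, and without E16.5 FL replicate 3 they were 14 and 9. The part of length in the result was not tested.

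**Figure D2:**
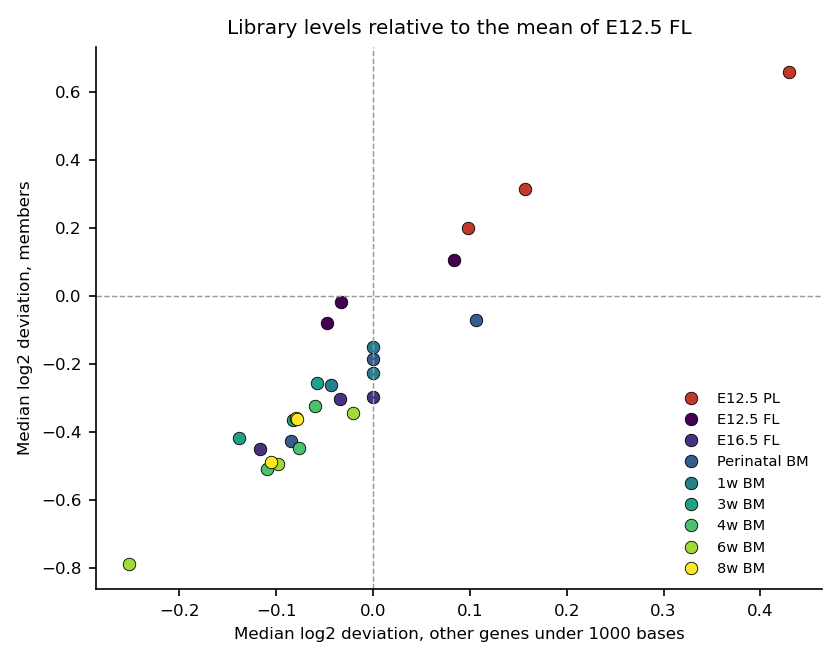
Library medians of the members (vertical axis) against library medians of the other genes under 1000 bases (horizontal axis), both as log2 deviation from the mean of E12.5 FL, with 1 point per library coloured by group. Libraries from E16.5 FL onward lie below 0 on the vertical axis, also where the horizontal value is at 0, and E12.5 PL replicate 3 and 6w BM replicate 2 stand at opposite ends of both axes.

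Summed levels of markers listed for blood cell lineages also differed between these groups. In E16.5 FL the summed level of 8 neutrophil markers was 888 to 1841 FPKM, with all 8 at an FPKM of at least 1, against 755 to 892 FPKM and 3 or 4 of 8 in E12.5 FL. For 7 B lineage markers the sums were 66.1 to 201 FPKM in E16.5 FL, against 22.1 to 26.5 FPKM in E12.5 FL, and for 10 erythroid markers 61.2 to 86.0 FPKM, against 12.0 to 65.7 FPKM. The sums of 8 macrophage markers were 49.8 to 57.1 FPKM, with 7 or 8 of 8 at an FPKM of at least 1, against 28.6 to 34.3 FPKM and 3 or 4 of 8. Their part in the members' changes was not tested.

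Members of complex I were lower in both its core and its accessory shell. Of the 7 core subunits, which carry the flavin, the iron-sulphur clusters and the quinone site, 5 were lower in E16.5 FL. Ndufs1, the largest subunit of the NADH-oxidising module, was at 36.6, 36.2 and 40.3 FPKM in E16.5 FL, against 48.4, 49.1 and 49.8 FPKM in E12.5 FL. The groups did not overlap (37.7 ± 2.25 and 49.1 ± 0.689 FPKM, SD, n = 3 each; log2 change -0.37, limma adjusted p = 0.000233). Ndufv2, another iron-sulphur protein of that module, had 62.3, 64.8 and 57.9 FPKM in E16.5 FL, against 76.9, 89.1 and 87.2 FPKM in E12.5 FL (log2 change -0.44, adjusted p = 0.00156). Ndufv1, which binds the flavin and NADH, stood at 63.2 ± 1.61 FPKM in E16.5 FL and 67.1 ± 2.65 FPKM in E12.5 FL, with overlapping libraries (log2 change -0.08, 95% interval -0.23 to 0.06, adjusted p = 0.394).

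Among the 28 accessory subunits of complex I, 19 were lower in E16.5 FL and none was higher (limma). Ndufa3 had 230, 211 and 155 FPKM in E16.5 FL, against 302, 360 and 318 FPKM in E12.5 FL (log2 change -0.73, adjusted p = 0.00163). Ndufv3, a small subunit attached to the NADH module, had 77.5, 76.9 and 61.8 FPKM, against 102, 116 and 107 FPKM (log2 change -0.58, adjusted p = 0.00188). In both genes every E16.5 FL library lay below every E12.5 FL library, and E16.5 FL replicate 3 was the lowest. The others called were Ndufs4, Ndufs5, Ndufs6, Ndufa5, Ndufa8, Ndufa9, Ndufa12, Ndufa13, Ndufb2, Ndufb3, Ndufb5, Ndufb6, Ndufb7, Ndufb8, Ndufb9, Ndufc1 and Ndufc2. Ndufb11, an X-linked membrane subunit, was the single member of complex I with a positive change (147 ± 15.0 FPKM in E16.5 FL and 128 ± 5.54 FPKM in E12.5 FL; log2 change 0.19, 95% interval -0.02 to 0.40, adjusted p = 0.146).

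In complex II 1 of 4 subunits was called. Sdhb, its iron-sulphur subunit, had 79.9, 84.3 and 76.3 FPKM in E16.5 FL, against 101, 108 and 103 FPKM in E12.5 FL (log2 change -0.37, limma adjusted p = 0.0251), with no overlap. Its call was lost without E12.5 FL replicate 2 or 3 or E16.5 FL replicate 1 or 3 (adjusted p 0.0553 to 0.0823). Sdha, the flavoprotein that oxidises succinate, stood at 118 ± 2.14 FPKM in E16.5 FL and 129 ± 2.38 FPKM in E12.5 FL (log2 change -0.13, adjusted p = 0.0693). The membrane anchors Sdhc and Sdhd, which bind haem and coenzyme Q, had log2 changes of -0.01 (95% interval -0.20 to 0.18) and -0.13 (-0.33 to 0.06).

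In complex III the called members were small accessory subunits. Uqcrb had 191, 169 and 165 FPKM in E16.5 FL, against 239, 262 and 226 FPKM in E12.5 FL (log2 change -0.47, limma adjusted p = 0.0169), and Uqcr10 had 207, 194 and 192 FPKM, against 255, 298 and 265 FPKM (log2 change -0.46, adjusted p = 0.0240). Neither gene overlapped between the groups, and both calls were lost without E12.5 FL replicate 2, E16.5 FL replicate 2 or E16.5 FL replicate 3 (adjusted p 0.0507 to 0.0974). The electron-carrying subunits were not called. Cyc1, the cytochrome c1 that reduces cytochrome c, stood at 105 ± 7.79 FPKM in E16.5 FL and 121 ± 8.93 FPKM in E12.5 FL (log2 change -0.20, adjusted p = 0.125), and Uqcrfs1, the Rieske iron-sulphur protein, at 124 ± 10.01 and 117 ± 6.08 FPKM (log2 change 0.07, adjusted p = 0.561). The core proteins Uqcrc1 and Uqcrc2 both had a log2 change of -0.12.

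Of 11 ubiquitous complex IV subunits, 6 were lower in E16.5 FL, Cox5b, Cox6a1, Cox6c, Cox7a2, Cox7b and Ndufa4. Ndufa4 had 356, 337 and 314 FPKM in E16.5 FL, against 501, 581 and 535 FPKM in E12.5 FL (log2 change -0.68, limma adjusted p = 0.00352). Cox6c had 280, 271 and 237 FPKM, against 383, 460 and 412 FPKM (log2 change -0.67, adjusted p = 0.00135), and Cox7b had 102, 96.1 and 82.3 FPKM, against 143, 164 and 139 FPKM (log2 change -0.67, adjusted p = 0.00129). All 3 genes were separated between the groups, with E16.5 FL replicate 3 lowest in each. Cox6a1 was called with an adjusted p of 0.0488 and was lost without any 1 of the 6 libraries (adjusted p 0.0586 to 0.173). Cox4i1 and Cox8a, the most abundant complex IV transcripts in E16.5 FL, stood at 450 ± 48.4 and 473 ± 48.9 FPKM there, and at 521 ± 31.0 and 437 ± 46.5 FPKM in E12.5 FL, with overlapping libraries (adjusted p = 0.184 and 0.486).

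In ATP synthase 3 of 5 subunits of the catalytic head and central stalk were lower. Atp5b, where ATP is made, had 641, 637 and 590 FPKM in E16.5 FL, against 748, 773 and 793 FPKM in E12.5 FL (log2 change -0.31, limma adjusted p = 0.00134). Atp5a1, its alpha-subunit partner, had 519, 515 and 480 FPKM, against 577, 594 and 610 FPKM (log2 change -0.23, adjusted p = 0.00602). In both genes every E16.5 FL library lay below every E12.5 FL library. Atp5c1 was also lower, while Atp5d and Atp5e of the central stalk were not called. Of 7 subunits of the peripheral stalk and the rest of the membrane part, 5 were lower (Atp5h, Atp5j, Atp5j2, Atp5k and Atp5l), and Atp5j2 had 256, 265 and 211 FPKM, against 371, 406 and 389 FPKM (log2 change -0.68, adjusted p = 0.00194). Atp5l shares 68.5% of its 50-base windows with other genes, 12 of the 13 being pseudogenes, so its level is uncertain.

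Cytochrome c, the soluble carrier between complexes III and IV, fell as well. Cycs (chr6:50562563-50566538, minus strand, GRCm38) had 39.9, 40.1 and 36.9 FPKM in E16.5 FL, against 68.9, 64.3 and 63.5 FPKM in E12.5 FL (39.0 ± 1.77 and 65.6 ± 2.89 FPKM, SD, n = 3 each; log2 change -0.74, limma adjusted p = 0.00089). The groups did not overlap, and the call held without every single library. Its mean was 33.3 ± 7.39 FPKM in Perinatal BM, 47.0 ± 8.39 in 1w BM, 52.0 ± 5.18 in 3w BM, 40.5 ± 5.51 in 4w BM, 43.3 ± 8.43 in 6w BM and 46.1 ± 3.24 in 8w BM, so the highest BM library (57.5 FPKM, 3w BM replicate 1) was below the lowest E12.5 FL library. Of its 50-base windows 28.2% are shared with other genes, and 8.8% with pseudogenes.

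The 3 members that were higher in E16.5 FL were not ubiquitous structural subunits. Cox6b2, a complex IV isoform best known from testis, had 43.0, 37.8 and 35.6 FPKM in E16.5 FL, against 22.4, 28.9 and 28.3 FPKM in E12.5 FL (log2 change 0.54, limma adjusted p = 0.0228). Its call was lost without E12.5 FL replicate 1 (adjusted p = 0.113) or E16.5 FL replicate 1 (adjusted p = 0.0915). Cox7a2l had 354, 302 and 281 FPKM, against 233, 256 and 238 FPKM (log2 change 0.36, adjusted p = 0.00418). A role in joining complexes III and IV into supercomplexes is described for it in other work and was not examined in these mice. Ndufa4l2, a relative of Ndufa4 known as a target of hypoxia-inducible factor, had 3.56, 3.41 and 1.40 FPKM, against 0.0886, 0.165 and 0.173 FPKM, and is given with no test. In all 3 the libraries of the groups did not overlap. Ndufa4l2 shares exon sequence with Shmt2 on the opposite strand, and since strand use in counting is not given, reads of the pair cannot be told apart.

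**Figure D3:**
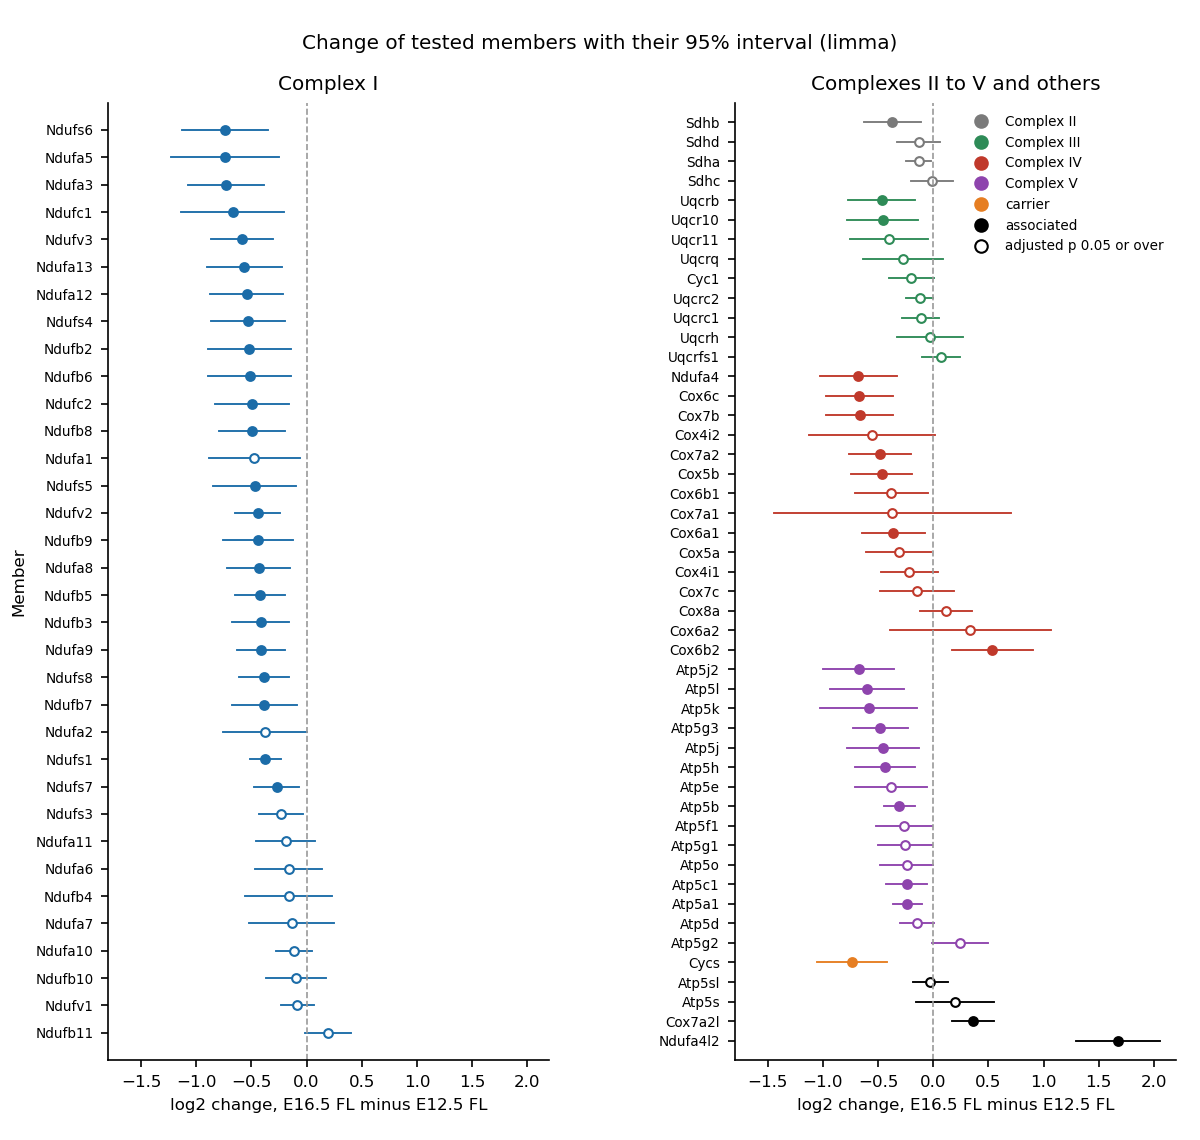
Log2 change of 82 tested members in E16.5 FL minus E12.5 FL with its 95% interval (limma); filled points have an adjusted p under 0.05 and colours give the complex. Filled points lie left of 0 in 42 members and right of 0 in Cox6b2, Cox7a2l and Ndufa4l2. Ndufa4l2 passed the filter through groups where it is high, so its point and interval are a description and no test.

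Other nuclear genes of mitochondria, taken from lists, are set beside the 15.6% of all genes that were lower in E16.5 FL and the 19.0% that were higher. Of 77 mitochondrial ribosomal proteins, 43 were lower in E16.5 FL and 1 higher (median log2 change -0.34), among them Mrpl12 (85.0 ± 4.87 FPKM in E16.5 FL and 130 ± 6.75 FPKM in E12.5 FL, log2 change -0.61). Of 47 assembly factors of the complexes, 21 were lower and 0 higher (median -0.34), and the copper chaperone Cox17 stood at 64.7 ± 12.6 FPKM, against 118 ± 8.67 FPKM (-0.87). Of 21 genes of protein import 14 were lower (median -0.35), with the small chaperone Timm10 at 13.4 ± 1.08 FPKM against 27.01 ± 1.95 FPKM (-0.96), and of 17 genes of the TCA cycle and pyruvate dehydrogenase 12 were lower (median -0.21), with malate dehydrogenase Mdh2 at 198 ± 9.55 FPKM against 263 ± 10.1 FPKM (-0.41). Without E12.5 FL replicate 2 these counts of lower genes were 23, 16, 9 and 6, and without E16.5 FL replicate 3 they were 27, 18, 11 and 8, while any other omission gave at least 31, 17, 10 and 9.

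In smaller lists the lower counts of the cristae genes and the regulators were near the share over all genes and are no result about those lists. Of 11 genes of coenzyme Q synthesis 4 were lower and 1 higher, of 10 genes of cristae and cardiolipin 2 were lower and 0 higher, and of 7 genes of superoxide and peroxide defence none was called in either direction by limma (median log2 change -0.19). Of 11 carriers and uncoupling genes 7 were lower and 1 higher, the higher one being Ucp2, an uncoupling-protein homologue of blood cells (299.9 ± 42.4 FPKM in E16.5 FL and 177 ± 14.3 FPKM in E12.5 FL, log2 change 0.75). The count of lower carriers was 3 without E12.5 FL replicate 2 or E16.5 FL replicate 3 and 4 without E12.5 FL replicate 3 or E16.5 FL replicate 2, that of coenzyme Q genes 2 without E12.5 FL replicate 3, and that of cristae genes 1 without E12.5 FL replicate 2 or 3. Of 14 tested regulators of mitochondrial biogenesis 3 were lower and 2 higher. Myc was at 62.6 ± 3.91 FPKM, against 106 ± 5.09 FPKM (-0.75), Esrra, the receptor ERR alpha, at 10.9 ± 0.263 FPKM, against 15.7 ± 1.08 FPKM (-0.49), and Tfam, which packages mitochondrial DNA, at 18.7 ± 1.51 FPKM, against 24.4 ± 1.36 FPKM (-0.36), while Yy1 was at 109 ± 8.44 FPKM, against 78.6 ± 3.31 FPKM (0.47; limma adjusted p = 4.57e-05).

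Successive marrow stages changed few members. These comparisons share libraries with their neighbours and are not independent of each other. In Perinatal BM against E16.5 FL, 3 members were higher and 1 lower, where 14.2% of all genes were higher and 14.2% lower (limma), and the members' median log2 change was 0.08. The 3 were complex I subunits. Ndufv1 had 76.5, 77.9 and 82.2 FPKM in Perinatal BM, against 63.1, 64.9 and 61.6 FPKM in E16.5 FL (log2 change 0.31, adjusted p = 0.00200), Ndufa10 had 91.6, 78.5 and 92.2 FPKM, against 73.1, 71.1 and 60.3 FPKM (log2 change 0.36, adjusted p = 0.00182), and Ndufb7 averaged 146 ± 21.5 FPKM, against 109 ± 3.50 FPKM (log2 change 0.40, adjusted p = 0.0388). The groups did not overlap in these genes. Ndufb7 lost its call without any library but Perinatal BM replicate 2 (adjusted p 0.0641 to 0.158). The lower member was Ndufa4l2 (0.459, 0.496 and 0.766 FPKM, against 3.56, 3.41 and 1.40 FPKM), given with no test, and with a filter at FPKM 5, which it does not pass, no member was called lower. The count of higher members was 5 without Perinatal BM replicate 2, and that of lower members 3 without Perinatal BM replicate 3. Perinatal BM libraries also held 1450 to 3933 FPKM of 8 mast cell markers, against 11.8 to 59.5 FPKM in E16.5 FL, and their part in these values was not tested.

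In 1w BM against Perinatal BM, 3 members were higher and 4 lower, where 8.6% and 8.97% of all genes were (limma). Cycs had 44.1, 40.4 and 56.4 FPKM in 1w BM, against 35.0, 25.2 and 39.7 FPKM in Perinatal BM (log2 change 0.49, adjusted p = 0.0306), Cyc1 averaged 115 ± 10.6 FPKM, against 92.4 ± 10.3 FPKM (0.31, adjusted p = 0.0330), and Ndufs1 averaged 40.3 ± 1.96 FPKM, against 35.0 ± 2.12 FPKM (0.20, adjusted p = 0.0478). These 3 did not overlap between the groups, yet each was lost without some libraries. For Cycs these were Perinatal BM replicate 2 and 1w BM replicates 1 and 3 (adjusted p 0.0545 to 0.193), for Cyc1 Perinatal BM replicates 1 and 2 and 1w BM replicates 2 and 3 (0.0530 to 0.173), and for Ndufs1 any library except Perinatal BM replicate 3 (0.0571 to 0.196). Cox7a2l had 220, 257 and 232 FPKM, against 357, 324 and 351 FPKM (log2 change -0.54, adjusted p = 0.000309), and this call held without every single library. Uqcrfs1 (-0.26) and Cox4i2 (-0.84, with overlapping groups) were also lower, and each lost its call without at least 3 single libraries. The count of lower members includes Ndufa4l2. The count of higher members was 0 without Perinatal BM replicate 2 or 1w BM replicate 3 and 1 without Perinatal BM replicate 1 or 1w BM replicate 1 or 2. That of lower members was 2 without Perinatal BM replicate 1 or 1w BM replicate 2 and 1 without Perinatal BM replicate 3 or 1w BM replicate 1. The mast cell markers came to 89.9 to 147 FPKM in 1w BM, against 1450 to 3933 FPKM in Perinatal BM, and the neutrophil markers to 3487 to 5395 FPKM, against 1318 to 2827 FPKM. Their part in these values was not tested.

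From 1 to 8 weeks the steps called 0 to 2 members each. In 3w BM against 1w BM limma called 0 members higher and 0 lower, where 5.69% and 4.76% of all genes were called, and 5 members had an unadjusted p under 0.05. In that step 76 of 83 changes were negative, with a median log2 change of -0.13. A fit of only these 6 libraries called 7 members lower. In 4w BM against 3w BM Atp5s, a coupling factor outside the structural enzyme, was higher (7.87, 9.17 and 8.57 FPKM, against 4.90, 5.11 and 3.78 FPKM; log2 change 0.78, adjusted p = 0.00744) and Atp5b was lower (533 ± 55.1 FPKM, against 619 ± 22.3 FPKM; -0.22, adjusted p = 0.0451), where 4.72% and 4.56% of all genes were. The Atp5b libraries overlapped and the call was lost without any of them except 4w BM replicate 2 (adjusted p 0.0544 to 0.234), while without that library 5 members were lower.

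In 6w BM against 4w BM, 2 members were lower and 0 higher (7 at an unadjusted p under 0.05), where 1.35% and 2.59% of all genes were. Atp5s had 5.72, 4.10 and 4.53 FPKM in 6w BM (log2 change -0.73, limma adjusted p = 0.0155), below its 4w BM libraries, and Cox4i2 had 3.34, 1.29 and 1.37 FPKM, against 4.92, 3.19 and 6.45 FPKM (-0.99, adjusted p = 0.0450), with overlap. The count of lower members was 1 without 4w BM replicate 1 and 0 without 4w BM replicate 3, 6w BM replicate 2 or 6w BM replicate 3. In 8w BM against 6w BM, Ndufs5 alone was called, and it was higher (59.2, 63.6 and 61.3 FPKM, against 28.3, 36.8 and 50.4 FPKM; log2 change 0.70, adjusted p = 0.0177), where 2.97% of all genes were higher and 5.21% lower. Ndufs5 lost its call without 6w BM replicate 1, 6w BM replicate 2 (adjusted p = 0.0739) or 8w BM replicate 2 (adjusted p = 0.0688). Without 6w BM replicate 1, 4 other members were called higher, and the count was 0 without 6w BM replicate 2 or 8w BM replicate 2. Ndufs5 shares 31.1% of its 50-base windows with other genes.

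**Figure D4:**
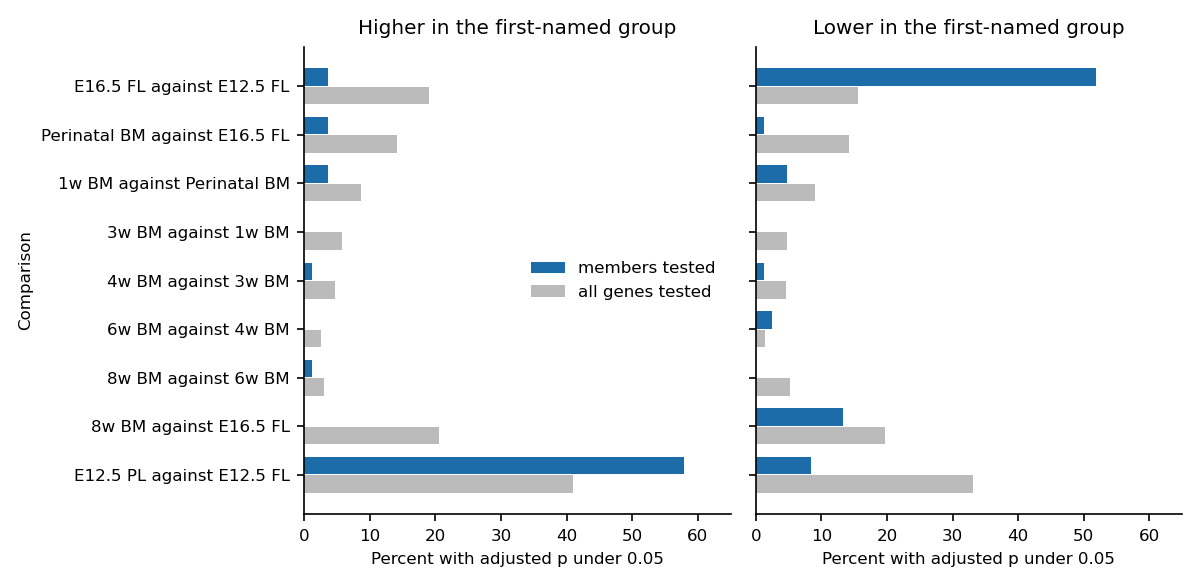
Percent of the 83 tested members (blue) and of all 13350 genes tested (grey) that were higher (left) or lower (right) in the first-named group of each comparison at an adjusted p under 0.05 (limma). The members exceed all genes in E16.5 FL against E12.5 FL for lower calls (43 members), in E12.5 PL against E12.5 FL for higher calls (48 members) and, by 2 members, in 6w BM against 4w BM for lower calls.

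Between adult marrow and E16.5 FL the share of called members was below that of all genes. In 8w BM 11 members were lower and 0 higher than in E16.5 FL, where 19.7% and 20.5% of all genes were (limma; 16 members had an unadjusted p under 0.05), and the members' median log2 change was -0.06. Without E16.5 FL replicate 1 or 8w BM replicate 3 the count of lower members was 7. Atp5b had 523, 545 and 511 FPKM in 8w BM, against 641, 637 and 590 FPKM in E16.5 FL (log2 change -0.24, adjusted p = 0.00675), and Atp5a1 had 424, 440 and 412 FPKM, against 519, 515 and 480 FPKM (-0.25, adjusted p = 0.00306). Uqcrfs1 had 98.3, 87.3 and 94.7 FPKM, against 130, 129 and 112 FPKM (-0.40, adjusted p = 0.000456), and Cox7a2l had 226, 218 and 205 FPKM, against 354, 302 and 281 FPKM (-0.52, adjusted p = 8.27e-05). These 4 genes were separated between the groups and kept their calls without every single library. Cox4i2 (-1.79) also kept its call. Ndufa4l2, counted among the 11, is given with no test and had 0, 0 and 0.110 FPKM in 8w BM, against 3.56, 3.41 and 1.40 FPKM. In 8w BM the macrophage markers came to 125 to 189 FPKM, against 49.8 to 57.1 FPKM in E16.5 FL, the neutrophil markers to 2234 to 2714 FPKM, against 888 to 1841 FPKM, the B lineage markers to 19.7 to 22.4 FPKM, against 66.1 to 201 FPKM, and the erythroid markers to 36.2 to 51.1 FPKM, against 61.2 to 86.0 FPKM. Their part in these changes was not tested. The calls of Ndufb11 (-0.28), Sdhd (-0.25), Uqcrc2 (-0.18), Atp5g3 (-0.33) and Cox7a1 (-1.49) were each lost without at least 2 single libraries.

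E12.5 PL differed from E12.5 FL in the opposite direction. Of the 83 members 48 were higher in E12.5 PL, where 41.0% of all genes were, and 7 were lower, where 33.2% were (limma). The members' median log2 change was 0.40, against 0.06 over all genes. Higher calls went to 23 of 35 members of complex I, 4 of 9 of complex III, 9 of 15 of complex IV and 11 of 15 of complex V, and to none of complex II. Leaving out 1 library gave 36 to 52 higher members, and 4 to 8 lower ones, with 4 without E12.5 PL replicate 2, and complex I had 15 higher members without E12.5 PL replicate 3. As the marker sums above show, these libraries held trophoblast and stromal transcripts. All 8 endothelial markers also reached an FPKM of 1 in E12.5 PL, with sums of 808 to 1030 FPKM, against 7 of 8 and 249.6 to 277 FPKM in E12.5 FL. The part of these markers in the members' values was not tested.

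Of members under 1000 bases 36 of 47 were higher in E12.5 PL (median log2 change 0.58), and of longer members 12 of 35 (0.11). Among the 668 other genes under 1000 bases 39.8% were higher and 14.4% lower (median 0.21). Among other genes from 1000 to under 4000 bases 43.1% were higher and 32.2% lower (median 0.10). Among those of 4000 bases and over 40.0% were higher and 39.2% lower (median -0.01). The share of longer members that were higher lay below both shares of longer other genes, and 3 of the 35 were lower. E12.5 PL replicate 3 had a members' median of 0.66, with 0.43 for the other short genes, and without it 28 of 47 shorter and 8 of 35 longer members were higher. The part of length in these calls was not tested.

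In complex I of E12.5 PL the highest change was in accessory subunits. Ndufa11, a membrane-arm subunit, had 27.8, 27.2 and 36.9 FPKM in E12.5 PL, against 12.2, 11.6 and 12.4 FPKM in E12.5 FL (log2 change 1.26, limma adjusted p = 6.01e-09), and Ndufa1 had 131, 161 and 238 FPKM, against 63.3, 76.7 and 57.2 FPKM (1.38, adjusted p = 1.35e-06). Ndufv1 had 101, 93.4 and 113 FPKM, against 64.0, 68.8 and 68.4 FPKM (0.60, adjusted p = 7.89e-08). The groups were apart in each. Its partner Ndufs1 stood at 46.4 ± 2.61 FPKM, against 49.1 ± 0.689 FPKM (log2 change -0.08, 95% interval -0.22 to 0.06).

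In complex II 2 of 4 subunits were lower in E12.5 PL, where 33.2% of all genes were. Sdha had 107, 97.6 and 89.8 FPKM in E12.5 PL, against 132, 127 and 130 FPKM in E12.5 FL (log2 change -0.40, limma adjusted p = 7.27e-07), without overlap and with the call kept without every single library. Sdhd had 115, 118 and 128 FPKM, against 138, 150 and 135 FPKM (-0.22, adjusted p = 0.0369), and lost its call without E12.5 PL replicate 1 or 2 or E12.5 FL replicate 1 or 2 (adjusted p 0.0537 to 0.137). Sdhb and Sdhc had log2 changes of 0.04 and 0.09. In complex III 4 of 9 members were higher, near the 41.0% of all genes, so this count is no result about complex III. The 4 (Uqcrb, Uqcrh, Uqcrq and Uqcr11) were accessory subunits, with Uqcrq at 370 ± 72.0 FPKM, against 212 ± 8.48 FPKM (0.78, adjusted p = 0.000357). Uqcr11 lost its call without E12.5 PL replicate 3 (adjusted p = 0.0955) or E12.5 FL replicate 1 (adjusted p = 0.0583).

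Of 11 ubiquitous complex IV subunits 9 were higher in E12.5 PL. Cox6a1 had 790, 880 and 1247 FPKM in E12.5 PL, against 373, 429 and 374 FPKM in E12.5 FL (log2 change 1.28, limma adjusted p = 1.73e-08), and Cox4i1 had 858, 851 and 1235 FPKM, against 494, 555 and 515 FPKM (0.89, adjusted p = 7.77e-07). E12.5 PL replicate 3 was the highest library for both genes, and the other 2 also lay above every E12.5 FL library. All 7 subunits of the peripheral stalk and remaining membrane part of ATP synthase were higher, with Atp5h at 554 ± 105 FPKM, against 309 ± 20.3 FPKM (0.83, adjusted p = 5.18e-06), while Atp5a1 was lower (534, 498 and 543 FPKM, against 577, 594 and 610 FPKM; -0.18, adjusted p = 0.0139) and Atp5b was not called (0.09, 95% interval -0.05 to 0.23). Atp5a1 lost its call without E12.5 PL replicate 2 (adjusted p = 0.0662) or E12.5 FL replicate 3 (adjusted p = 0.0549). Cycs averaged 79.3 ± 12.9 FPKM, against 65.6 ± 2.89 FPKM, with overlap (0.26, adjusted p = 0.136). Among the associated genes Ndufa4l2 had 2.89, 6.03 and 4.80 FPKM, against 0.0886, 0.165 and 0.173 FPKM, given with no test, and Atp5sl, known in other work as an assembly factor of complex I, was lower (18.7 ± 2.47 FPKM, against 24.6 ± 1.45 FPKM; -0.39, adjusted p = 8.46e-05).

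The other mitochondrial lists were divided in E12.5 PL, where 41.0% of all genes were higher and 33.2% lower. Of 77 mitochondrial ribosomal proteins 21 were higher and 17 lower (median log2 change 0.00), of 47 assembly factors 8 and 15 (-0.04), of 17 TCA cycle genes 5 and 5 (-0.04), of 21 import genes 7 and 4 (0.08) and of 14 regulators 3 and 7 (-0.19). Without E12.5 PL replicate 3, 13 ribosomal proteins were higher, and without E12.5 PL replicate 2 or E12.5 FL replicate 2, 10 were lower. Single genes moved far in both directions. Polg, the mitochondrial DNA polymerase, stood at 39.3 ± 4.07 FPKM in E12.5 PL and 11.5 ± 0.863 FPKM in E12.5 FL (log2 change 1.69, limma adjusted p = 9.51e-14), and Slc25a4, an ADP/ATP carrier, at 425 ± 67.0 and 175 ± 10.3 FPKM (1.26), while Pdha1 of pyruvate dehydrogenase stood at 60.4 ± 4.18 and 124 ± 3.25 FPKM (-1.03).

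Members with paralogues showed shifts in their proportions, given as the share of each isoform in the summed FPKM of its family. Cox4i2, the lung-type isoform of Cox4 (chr2:152754173-152765037, plus strand, GRCm38), was lower in 8w BM than in E16.5 FL. It had 14.0, 19.6 and 16.4 FPKM in E12.5 FL and 2.32, 2.06 and 3.03 FPKM in 8w BM, with group means of 11.0, 11.3, 5.95, 5.40, 4.85 and 2.0 FPKM at the stages between. Its share of Cox4i transcripts was 0.379% ± 0.109 in E12.5 PL, 3.09% ± 0.320 in E12.5 FL, 2.39% ± 0.0516 in E16.5 FL, 1.95% ± 0.381 in Perinatal BM and 0.582% ± 0.135 in 8w BM (SD, n = 3 each). All E12.5 PL and 8w BM shares lay below all those of E12.5 FL, E16.5 FL and Perinatal BM. Against E12.5 FL, its level was 3.60 ± 0.547 FPKM in E12.5 PL and 16.7 ± 2.77 FPKM in E12.5 FL (log2 change -1.94, limma adjusted p = 1.25e-06).

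Cox6b2 took 2.53% ± 0.152 of Cox6b transcripts in E12.5 PL, 5.90% ± 0.709 in E12.5 FL, 10.7% ± 0.619 in E16.5 FL and 13.4% ± 1.36 in 8w BM, and the library ranges of these 4 groups did not overlap. Of the groups between the last pair, Perinatal BM (8.70% to 12.4%) and 3w BM (7.31% to 13.5%) overlapped both. The ranges of 1w BM (11.3% to 12.4%), 4w BM (12.3% to 12.7%) and 6w BM (12.3% to 14.7%) overlapped 8w BM but not E16.5 FL. The level of Cox6b2 was 43.8 ± 9.25 FPKM in 8w BM and 38.8 ± 3.78 FPKM in E16.5 FL, and that of Cox6b1 was 282 ± 25.1 and 325 ± 28.2 FPKM. Neither gene was called between these 2 groups (limma). In E12.5 PL against E12.5 FL, Cox6b1 was called higher and Cox6b2 lower. That Cox6b2 call was lost without E12.5 PL replicate 1 or 2 or E12.5 FL replicate 2 or 3 (limma adjusted p 0.0915 to 0.117). The muscle-type isoforms were low throughout. Cox6a2 took 0.0277% ± 0.0361 of Cox6a transcripts in E12.5 PL, 0.743% ± 0.153 in E12.5 FL and 1.28% ± 0.167 in E16.5 FL, and Cox7a1 took 0.379% ± 0.328 of Cox7a transcripts in 8w BM and 2.60% ± 0.816 in E12.5 FL. The summed level of 9 striated muscle markers was at most 21.2 FPKM in any library, and that of 3 brown fat markers at most 0.981 FPKM.

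The rotor ring of ATP synthase is encoded by Atp5g1, Atp5g2 and Atp5g3, whose mature proteins are identical. Atp5g3 (chr2:73908447-73911326, minus strand, GRCm38) had 408, 385 and 360 FPKM in E16.5 FL, against 534, 530 and 544 FPKM in E12.5 FL (log2 change -0.48, limma adjusted p = 0.00370). Atp5g2 had 706, 650 and 639 FPKM, against 478, 648 and 568 FPKM, with overlap (log2 change 0.24, 95% interval -0.01 to 0.50, adjusted p = 0.128), and Atp5g1 had 175, 161 and 149 FPKM, against 179, 202 and 198 FPKM (-0.26, adjusted p = 0.0958). The share of Atp5g2 was 38.3% ± 1.79 in E12.5 PL, 43.5% ± 3.42 in E12.5 FL, 54.9% ± 0.688 in E16.5 FL and 55.5% ± 2.696 in 8w BM, and that of Atp5g3 was 44.6% ± 1.72, 41.6% ± 3.25, 31.7% ± 0.437 and 28.5% ± 1.73 in the same groups. For both genes the E16.5 FL shares lay outside the range of the E12.5 FL shares. Cox7a2l (chr17:83501918-83517330, minus strand, GRCm38) followed a course of its own. It was at 312 ± 37.7 FPKM in E16.5 FL and 344 ± 17.6 FPKM in Perinatal BM and between 216 and 242 FPKM on average in every other group, and the lowest library of the first pair of groups (281 FPKM) was above the highest of all others (257 FPKM).

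**Figure D5:**
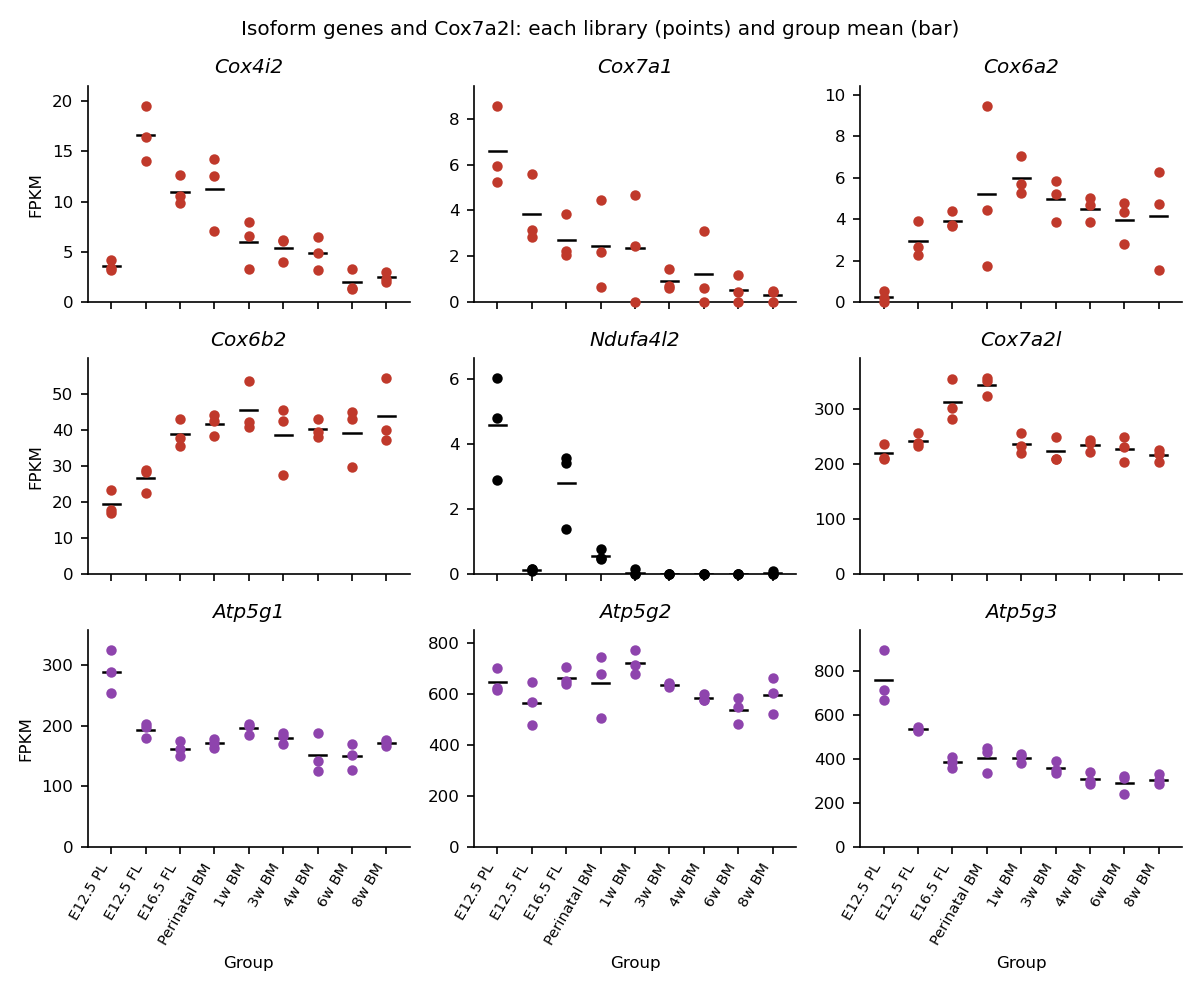
FPKM of isoform genes and Cox7a2l in each library (points) with the group mean (bars), on linear axes that start at 0 and differ between panels. Cox4i2 is highest in E12.5 FL and lowest in 6w BM and 8w BM, Cox7a2l is raised in E16.5 FL and Perinatal BM, and the group means of Atp5g3 lie between 292 and 406 FPKM from E16.5 FL onward, against 536 FPKM in E12.5 FL.

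Sequence overlap with other genes makes the level of some members uncertain. Of 86 members 85 were found in the GENCODE M21 annotation, 38 share at least 1 window of 50 bases with another gene and 13 share over 20% of their windows. Besides Atp5l, these include Atp5h (47.9%) and Uqcrb (43.2%), whose values above are uncertain for this reason. Exons of 26 members overlap exons of a gene on the opposite strand (Ndufs6 with Mrpl36, Ndufb5 with Mrpl47, Ndufs1 with Eef1b2, Atp5j with Gabpa), and those values are uncertain because strand use in counting is not given.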

How the data were processed

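Gene-level FPKM were used as the authors deposited them. Per the labels, Tri Pure and a TruSeq kit were used, and among the tools in the submitters' processing notes are Trim Galore, FastQC, STAR 2.7 and HTSeq 0.6.1p1, with the build GRCm38. Which tool computed FPKM, with which annotation, is not stated there. After log2(FPKM + 1), the 13350 entries that reached an FPKM of 1 in 3 or more libraries were fitted with limma 3.58.1 in R 4.3.3 (lmFit, eBayes with trend) with 9 group means over 27 libraries and 18 residual degrees of freedom. Benjamini-Hochberg adjustment ran over every gene of a comparison, with calls at 0.05, and the moderated F compared the 7 later FL and BM groups with E12.5 FL. The calling was tested on simulated data.

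The members, complexes, lists and tests were chosen with earlier results of these data known. Full values are given for up to 4 called members per complex and direction (smallest adjusted p, mean FPKM of at least 5, no overlap of libraries), for Sdh, cytochrome and isoform genes, and for the 10 smallest p of the F test, and other members are listed by symbol, except 1 that is counted but not reported here. Lists are illustrated by genes among the 4 with the smallest p. Intervals are 95% intervals of limma. Positions and lengths are from GENCODE M21, promoters from RefSeq. The fit was repeated with 0.1 as pseudocount, without a filter, with a filter at FPKM 5, median-of-ratios scaling (factors 0.991 to 1.02), a replicate block, a fit of only the compared groups, leaving out each library, and, added after seeing the data, a fit without E12.5 PL. Python 3.11.15 with matplotlib 3.10.9 drew the figures.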

Additional observations from a re-analysis of the deposited data

How the results depend on the processing

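No called change of a named member reversed its direction under any alternative. Of 72 called changes of named members, 45 kept their call under every alternative, 25 were lost without at least 1 library, 13 with only the compared groups, 7 with no filter, 2 without E12.5 PL and 1 with a pseudocount of 0.1. The 72 include the calls of Ndufa4l2, which is given with no test, so the tally is no support for that gene. The replicate block (numbers do not pair the libraries: residual correlations -0.205 to 0.227, 8 of 27 closest to their own number) lost 2, Cox6a1 in E16.5 FL against E12.5 FL and Atp5b in 4w BM against 3w BM (0 lower instead of 1), left 42 lower members in E16.5 FL against E12.5 FL, and changed no other called change of a named member. With only the compared groups, 1w BM against Perinatal BM had 0 higher and 2 lower members, 3w BM against 1w BM 7 lower, 4w BM against 3w BM 0 higher and 0 lower, 6w BM against 4w BM 0 lower, 8w BM against 6w BM 0 higher and 8w BM against E16.5 FL 1 higher. With no filter, 4w BM against 3w BM had 0 lower and 6w BM against 4w BM 1 lower, and with a filter at FPKM 5 Perinatal BM against E16.5 FL had 0 lower and 4w BM against 3w BM 2 lower. Without E12.5 PL the counts were 5 higher in Perinatal BM against E16.5 FL, 2 lower in 4w BM against 3w BM, 1 lower in 6w BM against 4w BM and 2 higher in 8w BM against 6w BM. In E16.5 FL against E12.5 FL, 35 members were lower with no filter and 51 with only the compared groups, against 43 in the main fit. Fewer libraries or other sets of genes enter some of these fits, and the cause was not tested further. Leaving out 1 library at a time gave, for higher and lower members, 2 to 3 and 21 to 39 in E16.5 FL against E12.5 FL, 2 to 5 and 1 to 3 in Perinatal BM against E16.5 FL, 0 to 4 and 1 to 3 in 1w BM against Perinatal BM, 0 to 0 and 0 to 0 in 3w BM against 1w BM, 1 to 1 and 0 to 5 in 4w BM against 3w BM, 0 to 0 and 0 to 2 in 6w BM against 4w BM, 0 to 4 and 0 to 0 in 8w BM against 6w BM, 0 to 0 and 7 to 12 in 8w BM against E16.5 FL, and 36 to 52 and 4 to 8 in E12.5 PL against E12.5 FL, with 53 to 71 members that vary. For 4w BM against 3w BM the 5 came without 4w BM replicate 2 and any other omission gave 0. In 1w BM against Perinatal BM the higher count was 0 or 1 without any library but Perinatal BM replicate 3, and the lower count 1 or 2 without Perinatal BM replicate 1 or 3 or 1w BM replicate 1 or 2. Depth is unknown, so no limit from counting can be given.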
